A study of Mus musculus with 3 samples.

Results

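The genes described here are 30 genes of cholesterol synthesis and its control, chosen from a list that was drawn up with results of these data in view, out of 22100 gene symbols in the count tables. They comprise 8 enzymes that lead from acetyl-CoA to farnesyl and geranylgeranyl diphosphate, 11 enzymes that lead from squalene to cholesterol, 7 genes of the control machinery and 4 genes of sterol transport. All 30 had UMIs (unique molecular identifiers, 1 for each captured RNA molecule) at all 3 stages, and their totals ran from 159 UMIs for Abca1 in its lowest library to 40734 for the highest. Because the genes were picked for how they behaved in these libraries, their values are given as a description and no test is attached to them.

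The libraries come from whole small intestine of wild-type, untreated mice at 3 stages, E15.5 and E17.5 of embryonic life and P7, a week after birth, with 1 droplet library of the 3′ kind per stage. Epithelial and mesenchymal fractions were pooled and sorted for viable cells, either Epcam-positive or negative for Epcam, CD31 and CD45, so the sort set the share of epithelium and left few endothelial or blood cells. The sources used here do not give strain, sex or the number of animals. Cells numbered 8447, 11598 and 8391 in stage order, with 93501273, 94023160 and 116038115 UMIs in all, and 243, 453 and 389 called doublets were then removed. With 1 library per stage, a stage cannot be told apart from its library, dissection or sort.

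Cholesterol is built in the endoplasmic reticulum from acetyl-CoA by way of mevalonate, farnesyl diphosphate and squalene, and a side branch at farnesyl diphosphate supplies the lipid anchors of small GTPases. When sterol is scarce, Scap carries the transcription factor precursor SREBP to the Golgi, where the proteases encoded by Mbtps1 and Mbtps2 release it to switch on the enzyme genes. When sterol is ample, Insig proteins hold Scap back, and oxidised sterols activate the nuclear receptor LXR, which raises the efflux pump Abca1.

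Promoter sequences of the genes were searched for the letters of known binding sites. RefSeq promoters (GRCm38.p6, 250 bases before to 50 after each start) were at hand for 25 of the 30 genes. Fdps, Fdft1, Sqle, Stard4 and Npc1 had no entry and were not searched. The letters TCACNCCAC, a form of the sterol regulatory element that SREBP binds, were searched on both strands. A gene counted if any of its promoters held the letters. They occurred in 1 of the 25, Hmgcs1 (4%), against 1.44% of 27025 gene symbols with a promoter. A narrower form, with an A in front and the open place set to C, occurred in 0 of the 25 and in 0.0999% of those symbols. The letters CCAAT are the core bound by the cofactor NF-Y and were searched after the data had been seen. They occurred in 20 of the 25 (80%), against 41.1% of those symbols. A match describes the reference letters only. The 250 bases before the start are printed for 4 genes with large stage ratios in fibroblasts, with matches to either motif in capitals (CCAAT on the other strand reads ATTGG). Msmo1 is at chr8:64733579-64733828 on the minus strand, Idi1 at chr13:8885356-8885605 on the plus strand, Hmgcs1 at chr13:119690101-119690350 on the plus strand and Lss at chr10:76531355-76531604 on the plus strand.
Msmo1: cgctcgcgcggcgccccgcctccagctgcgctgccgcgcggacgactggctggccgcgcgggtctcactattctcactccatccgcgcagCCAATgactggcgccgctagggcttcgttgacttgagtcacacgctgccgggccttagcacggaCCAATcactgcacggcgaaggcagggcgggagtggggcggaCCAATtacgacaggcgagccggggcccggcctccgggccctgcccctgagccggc
Idi1: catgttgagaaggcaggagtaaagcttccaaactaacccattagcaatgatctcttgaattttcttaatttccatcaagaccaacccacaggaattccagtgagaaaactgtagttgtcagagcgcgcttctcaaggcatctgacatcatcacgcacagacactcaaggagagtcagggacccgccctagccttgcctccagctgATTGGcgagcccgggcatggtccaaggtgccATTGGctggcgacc
Hmgcs1: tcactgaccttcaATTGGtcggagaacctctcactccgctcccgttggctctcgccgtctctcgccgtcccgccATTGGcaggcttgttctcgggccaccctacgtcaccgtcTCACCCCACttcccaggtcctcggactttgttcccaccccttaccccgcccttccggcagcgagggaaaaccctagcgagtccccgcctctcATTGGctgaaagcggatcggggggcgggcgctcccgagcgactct
Lss: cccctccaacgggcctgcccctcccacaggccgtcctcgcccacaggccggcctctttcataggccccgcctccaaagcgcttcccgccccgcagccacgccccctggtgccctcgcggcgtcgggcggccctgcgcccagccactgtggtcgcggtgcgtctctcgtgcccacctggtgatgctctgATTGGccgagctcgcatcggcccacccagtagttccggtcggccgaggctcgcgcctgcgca

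In the printed windows, Msmo1 held CCAAT with its first base 160, 96 and 55 bases before the start. Idi1 held it on the other strand 45 and 14 bases before the start, and Lss 62 bases before it. Hmgcs1 held TCACCCCAC 137 bases before the start, between copies of ATTGG at 176 and 45 bases.

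Cells were sorted into classes by marker genes, none of which is among the 30, with thresholds set after the marker distributions had been seen. Classes are named for the cells whose markers they carry, so each is fibroblast-like, neuron-like and so on. Fibroblasts, gated on collagens, Dcn, Lum and Pdgfra, numbered 3650 at E15.5, 4496 at E17.5 and 747 at P7, and 60, 21 and 1 of them lay within 1.25-fold of the threshold. In gated fibroblasts the median summed epithelial markers were 0, 0 and 1.66 UMIs per 10000, against 65.7, 145 and 356 UMIs per 10000 for fibroblast markers. The gate itself asks for at least 16 fibroblast-marker and fewer than 16 epithelial-marker UMIs per 10000. These medians therefore follow in part from the rule and are no separate measure of purity. Levels are CPM, the UMIs of a gene per 1000000 UMIs of the class, and intervals are exact, at 95%, and cover counting error only.

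Compared with E15.5, fibroblasts at E17.5 carried much less RNA of nearly the whole enzyme chain, and by P7 part of it was back. The summed level of the 19 enzymes was 1291 CPM at E15.5, 439 CPM at E17.5 and 728 CPM at P7. The E17.5 sum was lower by 1.56 on the log2 scale (interval -1.59 to -1.52), and the P7 sum was higher than that at E17.5 by 0.73 (0.67 to 0.79). At E17.5 against E15.5, 20 of the 30 genes were at least 1.5-fold lower, where 11.8% of all genes were, and 1 was at least 1.5-fold higher, where 15.1% of all genes were. Their median log2 ratio was -1.35, against -0.07 for all genes. Since the choice of genes used this contrast, nothing is read from these counts. Over genes with at least 100 UMIs the median log2 ratio in fibroblasts was -0.11 at this step and 0.12 at P7 against E17.5.

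**Figure D1:**
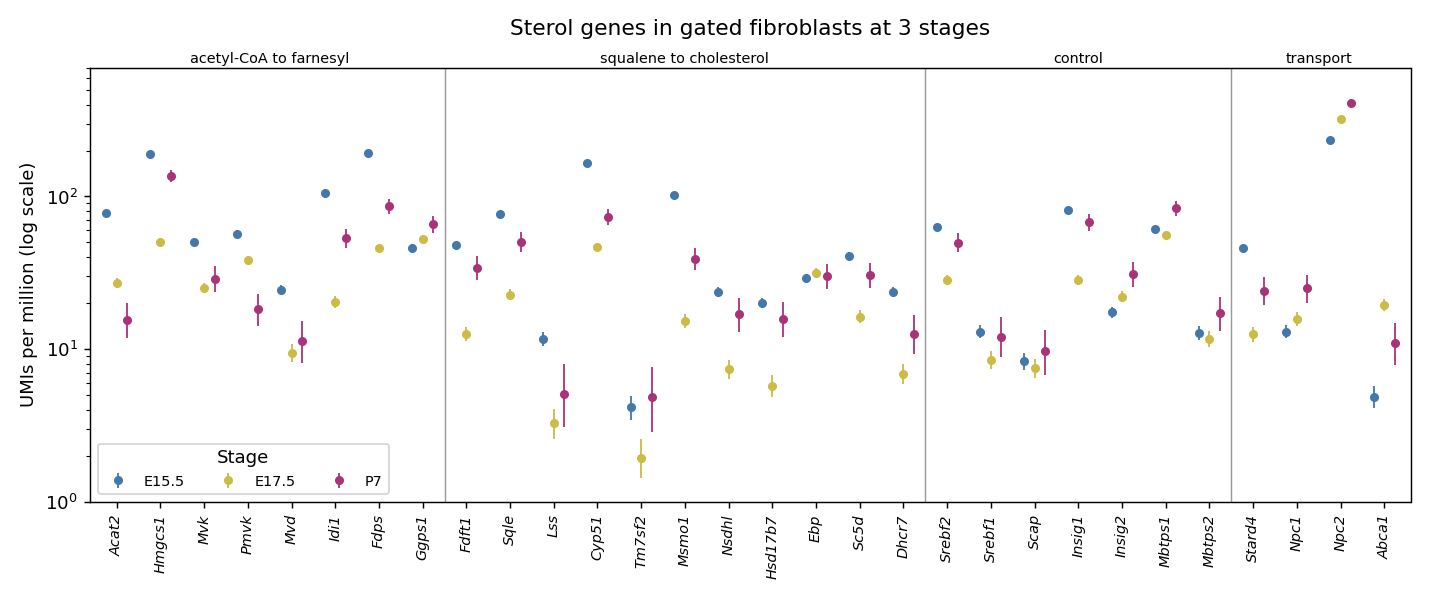
Level of each of the 30 genes in gated fibroblasts at E15.5, E17.5 and P7, in CPM on a log axis, with genes in pathway order. Points are values of 1 library and bars are exact 95% Poisson intervals. Most enzyme genes are lowest at E17.5, as Msmo1 at 15.2 CPM, while Ggps1 and Ebp are not lower there and Abca1 is highest at E17.5.

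In the first stretch of the pathway, 6 of 8 genes were at least 1.5-fold lower at E17.5, where 11.8% of all genes were. Idi1, the isomerase that makes the reactive isoprene unit, was at 106 CPM at E15.5, 20.3 CPM at E17.5 and 53.4 CPM at P7. Hmgcs1, the synthase that makes HMG-CoA, was at 190.3 CPM at E15.5, 50.5 CPM at E17.5 and 136 CPM at P7. Their E17.5 over E15.5 log2 ratios were -2.38 (-2.52 to -2.24) and -1.92, and at P7 both lay between the other stages. Fdps, the farnesyl diphosphate synthase, was at 193 CPM at E15.5, 46.1 CPM at E17.5 and 86.3 CPM at P7, a log2 ratio of -2.06 at E17.5 against E15.5. Its last 500 transcript bases share 63.8% of their 31-letter words with Gm3571, so its level is uncertain. On the same strand, Tm7sf2 overlaps Vps51, Mbtps2 overlaps Yy2, and Fdps, Srebf2 and Srebf1 each overlap other annotated genes. Hmgcs1, Mvd, Idi1, Ggps1, Fdft1, Lss, Cyp51, Srebf1, Scap, Insig2, Mbtps2 and Npc1 each overlap a gene on the other strand. Without Fdps the enzyme sum was 1098 CPM at E15.5, 393 CPM at E17.5 and 642 CPM at P7.

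The other early genes did not move alike. Acat2, the thiolase that joins the first acetyl-CoA units, was at 78.5 CPM at E15.5, 27.1 CPM at E17.5 and 15.55 CPM at P7, so it was lower again at the last stage. Pmvk, phosphomevalonate kinase, likewise stood at 57.1 CPM at E15.5, 38.3 CPM at E17.5 and 18.2 CPM at P7. The mevalonate kinase Mvk and the decarboxylase Mvd had log2 ratios of -0.999 and -1.37 at E17.5 against E15.5, and of 0.20 and 0.26 at P7 against E17.5. Ggps1, which feeds the branch to geranylgeranyl anchors, was at 46.0 CPM at E15.5, 52.4 CPM at E17.5 and 65.7 CPM at P7. It was the only one of the 8 early genes with a higher level at E17.5, by 0.19 on the log2 scale (0.08 to 0.30).

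In the stretch from squalene to cholesterol, 10 of 11 genes were at least 1.5-fold lower at E17.5, where 11.8% of all genes were, and 10 were at least 1.5-fold higher at P7 than at E17.5, where 23.2% were. Msmo1, the monooxygenase that starts removal of the later methyl groups from the sterol ring, was at 102 CPM at E15.5, 15.2 CPM at E17.5 and 39.1 CPM at P7. The ratio of its E17.5 to its E15.5 level, -2.74 on the log2 scale (-2.90 to -2.58), was the lowest of all 30 genes. Cyp51, which removes an earlier methyl group, was at 166 CPM at E15.5, 46.5 CPM at E17.5 and 73.2 CPM at P7, a log2 ratio of -1.84 at E17.5 against E15.5.

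Squalene synthase Fdft1 was at 48.0 CPM at E15.5, 12.6 CPM at E17.5 and 34.0 CPM at P7. Squalene epoxidase Sqle was at 76.5 CPM at E15.5, 22.6 CPM at E17.5 and 50.4 CPM at P7. Lanosterol synthase Lss was at 11.7 CPM at E15.5, 3.25 CPM at E17.5 and 5.09 CPM at P7. The enzymes that open and close the squalene chain thus shared the low point at E17.5, with log2 ratios of -1.93, -1.76 and -1.84 against E15.5.

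Hsd17b7, the ketoreductase of methyl removal, was at 20.02 CPM at E15.5, 5.74 CPM at E17.5 and 15.8 CPM at P7, and its P7 over E17.5 log2 ratio of 1.46 was the highest of the 30. The dehydrogenase Nsdhl was at 23.8 CPM at E15.5, 7.34 CPM at E17.5 and 16.9 CPM at P7. Dhcr7, a reductase at the end of the chain, was at 23.5 CPM at E15.5, 6.86 CPM at E17.5 and 12.6 CPM at P7. The desaturase Sc5d showed the same order of stages, with a log2 ratio of -1.33 at E17.5 against E15.5. The reductase Tm7sf2 was also lowest at E17.5, at 4.14 CPM at E15.5, 1.93 CPM at E17.5 and 4.83 CPM (18 UMIs) at P7. Its log2 ratio at E17.5 against E15.5 was -1.10. Ebp, the sterol isomerase, was not lowest at E17.5, at 29.1 CPM at E15.5, 31.6 CPM at E17.5 and 30.03 CPM at P7.

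Among the control genes, Insig1, Srebf2 and Srebf1 were at least 1.5-fold lower at E17.5, and Scap, Mbtps1, Mbtps2 and Insig2 were not. Insig1, which anchors Scap, was at 81.2 CPM at E15.5, 28.4 CPM at E17.5 and 67.6 CPM at P7, log2 ratios of -1.52 and then 1.25. Srebf2, the main SREBP of sterol genes, was at 63.5 CPM at E15.5, 28.2 CPM at E17.5 and 49.9 CPM at P7, log2 ratios of -1.17 and then 0.82. Srebf1, the SREBP of fatty acid genes, was at 13.0 CPM at E15.5, 8.47 CPM at E17.5 and 12.1 CPM at P7. Its embryonic difference lay close to the 1.5-fold limit. Scap, Mbtps1 and Mbtps2 had log2 ratios of -0.15, -0.13 and -0.13 at E17.5 against E15.5. Insig2, the second anchor, was at 17.4 CPM at E15.5, 22.0 CPM at E17.5 and 30.8 CPM at P7, a steady order that Insig1 did not share.

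The transport genes split as well. Stard4, a soluble sterol carrier, went with the enzymes, at 45.6 CPM at E15.5, 12.5 CPM at E17.5 and 24.1 CPM at P7. Abca1, the efflux pump, ran the other way, at 4.83 CPM at E15.5, 19.3 CPM at E17.5 and 10.99 CPM at P7, with log2 ratios of 2.00 (1.73 to 2.28) and then -0.81 (-1.31 to -0.35). Npc1 and Npc2, which move cholesterol out of lysosomes, were highest at P7, at 24.9 CPM and 412 CPM, and had log2 ratios of 0.28 and 0.46 at E17.5 against E15.5.

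At P7 against E17.5, 17 of the 30 genes were at least 1.5-fold higher in fibroblasts, where 23.2% of all genes were, and 3 were at least 1.5-fold lower (Pmvk, Abca1 and Acat2), where 11.6% of all genes were. The largest ratios after Hsd17b7 were those of Fdft1 at 1.44, Hmgcs1 at 1.43, Idi1 at 1.39, Msmo1 at 1.36, Tm7sf2 at 1.33 (18 UMIs at P7) and Insig1 at 1.25. Nsdhl, Sqle, Stard4, Sc5d and Fdps followed at 1.20, 1.16, 0.95, 0.91 and 0.91. The fibroblast level at E17.5 also entered the choice of the genes. Nothing is therefore read from the counts at this step, in fibroblasts or in their kinds. For P7 against E15.5, the log2 ratio of the enzyme sum was -0.83. Of the 30, 12 genes were at least 1.5-fold lower at P7, where 18.7% of all genes were, and 4 were at least 1.5-fold higher (Insig2, Npc1, Npc2 and Abca1), where 25.7% of all genes were. Acat2 at -2.34 and Pmvk at -1.65 had the lowest of these log2 ratios.

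Depth differed between the stages, with a median of 7598, 5210.5 and 4665 UMIs per fibroblast at E15.5, E17.5 and P7. After each cell was thinned to 2500 UMIs, with 30, 269 and 39 shallower cells left out, a fibroblast held a mean of 3.15 enzyme UMIs at E15.5, 1.08 at E17.5 and 1.79 at P7, and 15.7%, 41.5% and 23.2% of cells held none. The order of the stages was the same as in the summed levels.

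Other features of the fibroblasts moved across the same stages. Summed early-response and heat-shock genes, a list of 16 with Fos, Jun and Hspa1a, stood at 8223 CPM at E15.5, 14763 CPM at E17.5 and 20645 CPM at P7, and their part in the result was not tested. Cell cycle genes stood at 2706 CPM at E15.5, 1645 CPM at E17.5 and 1473 CPM at P7. Fibroblasts at or below the cell cycle median of their stage had enzyme sums of 1311 CPM at E15.5, 397 CPM at E17.5 and 668 CPM at P7. Those above it had 1277, 472 and 783 CPM. Because each stage was split at its own median, these groups are not matched for cell cycle between stages. The part of the cell cycle in the result was not tested. Fibroblasts rich in Ccl2, Cxcl1, Cxcl10 and Ccl7 numbered 192, 1810 and 166 and had sums of 1429, 413 and 728 CPM at E15.5, E17.5 and P7, while those poor in them had 1236, 455 and 764 CPM.

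RNA of other cells was present in the fibroblast gate. All 11 epithelial markers had UMIs there at each stage, with sums of 37.5 CPM at E15.5, 29.7 CPM at E17.5 and 184 CPM at P7. Fabp2, an enterocyte fatty acid carrier, was in fibroblasts at 0.755%, 1.60% and 2.76% of its epithelial level at the 3 stages in order. The epithelial enzyme sum scaled to those percentages is 15.96 CPM at E15.5, 24.8 CPM at E17.5 and 20.7 CPM at P7. Apoa4, another enterocyte gene, stood at 0.695%, 0.647% and 2.99% of its epithelial level, RNA from other classes was not scaled, and the part of such RNA in the result was not tested. Of the 30 genes, 1 at E15.5, 7 at E17.5 and 5 at P7 had a level over 5 times higher in another class than in fibroblasts.

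A lower enzyme sum at E17.5 was found in each kind of fibroblast with over 5 cells, and its size in each kind is given as a description. Deep fibroblasts, gated on Cxcl13, Ogn, Gpc3 and Fbln1, had enzyme sums of 1286 CPM at E15.5, 325 CPM at E17.5 and 768 CPM at P7, from 507, 1507 and 66 cells. Outer fibroblasts, gated on Dlk1 and Lsp1, had 1510 CPM at E15.5, 648 CPM at E17.5 and 668 CPM at P7, from 1382, 972 and 18 cells. The E17.5 over E15.5 log2 ratio of the sum was -1.98 (-2.05 to -1.92) in deep and -1.22 (-1.27 to -1.17) in outer fibroblasts, with intervals that cover counting error in 1 library per stage, and the difference between the kinds was not tested.

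Mucosal fibroblasts, gated on Adamdec1, Col6a4 and Vcam1, had 949.6 CPM at E15.5, 387 CPM at E17.5 and 721 CPM at P7. Subepithelial fibroblasts, gated on Pdgfra, Bmp and Wnt genes that signal to the epithelium, had 1005 CPM at E15.5, 486 CPM at E17.5 and 963 CPM at P7, the last from 22 cells. At E15.5 these kinds next to the epithelium were the lowest, and outer fibroblasts the highest of the kinds with over 5 cells. Adventitial fibroblasts, gated on Cd34, Pi16 and Dpp4 among others, were 5 cells at E15.5 and had 594 CPM at E17.5 and 707 CPM at P7.

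Set against E15.5, 21 of the 30 genes were at least 1.5-fold lower at E17.5 in the deep kind, where 14.9% of all genes were. In the mucosal and the outer kind 19 were, where 12.3% and 15.2% of all genes were, and in the subepithelial kind 15 of 28, where 17.3% were. At P7 against E17.5, 18 of 29 were at least 1.5-fold higher in the mucosal kind, where 24.4% of all genes were, and 18 of 29 in the deep kind, where 26.8% were. Msmo1 shows the range: it was at 109 CPM at E15.5, 5.84 CPM at E17.5 and 34.1 CPM at P7 in deep fibroblasts, and at 127 CPM at E15.5, 34.7 CPM at E17.5 and 67.9 CPM (6 UMIs) at P7 in outer ones. Abca1 was at 3.98 CPM at E15.5, 26.4 CPM at E17.5 and 8.53 CPM (3 UMIs) at P7 in deep fibroblasts. In subepithelial fibroblasts it already stood at 19.5 CPM at E15.5, against 23.2 CPM at E17.5 and 23.5 CPM (2 UMIs) at P7. At P7 it was at 18.6 CPM in adventitial and 3.71 CPM in mucosal fibroblasts. Of each kind, 1 to 151 cells at a stage lay within 1.25-fold of the gate's threshold.

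**Figure D2:**
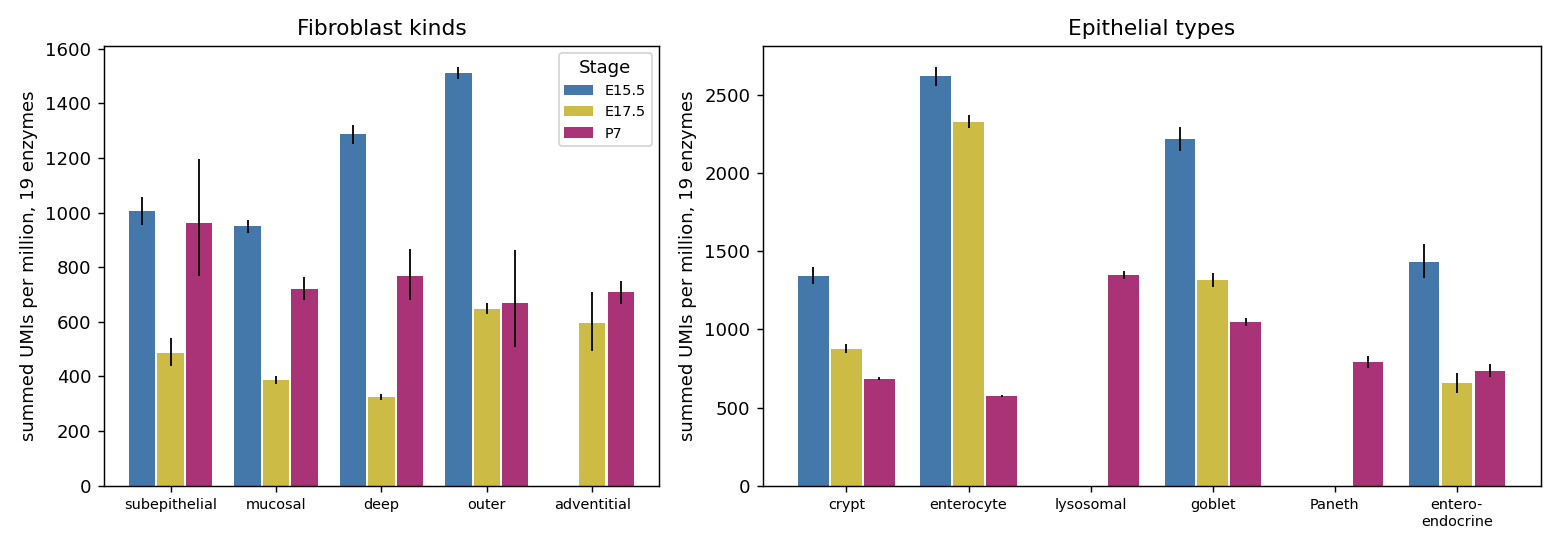
Summed CPM of the 19 enzymes by fibroblast kind (left) and epithelial type (right) at E15.5, E17.5 and P7, with exact 95% Poisson intervals from 1 library per stage. Kinds and types with 5 cells or fewer at a stage are not drawn. Deep fibroblasts are lowest at E17.5 with 325 CPM, and the enterocyte type has 572 CPM at P7, against 2329 CPM at E17.5.

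Across classes, the enzyme sum was highest in neurons and epithelium in the embryo, while at P7 epithelium stood below neurons, glia and Cajal cells. Neurons, gated on Elavl4, Tubb3, Stmn2 and others, had enzyme sums of 2133 CPM at E15.5, 2174 CPM at E17.5 and 2831 CPM at P7, from 607, 707 and 161 cells. Epithelium had 2115 CPM at E15.5, 1548 CPM at E17.5 and 749.7 CPM at P7, from 1253, 1413 and 5986 cells. Glia, gated on Sox10, S100b, Erbb3 and others, had 763 CPM at E15.5, 565 CPM at E17.5 and 1278 CPM at P7, from 296, 904 and 64 cells. So neurons were highest at P7, epithelium was lowest there, and glia shared the dip of the fibroblasts at E17.5 in a shallower form.

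Visceral muscle, gated on Actg2, Des, Synpo2 and Hhip, had 1045 CPM at E15.5, 677 CPM at E17.5 and 515 CPM at P7, from 863, 1148 and 100 cells. Pericytes had 1548 CPM at E15.5, 670.4 CPM at E17.5 and 717 CPM at P7. Interstitial cells of Cajal, the pacemaker cells of the gut wall, had 1056 CPM at E15.5, 872 CPM at E17.5 and 1178 CPM at P7. Vascular muscle, 17 cells at E17.5 and 405 at P7, had 752 CPM at P7.

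**Figure D3:**
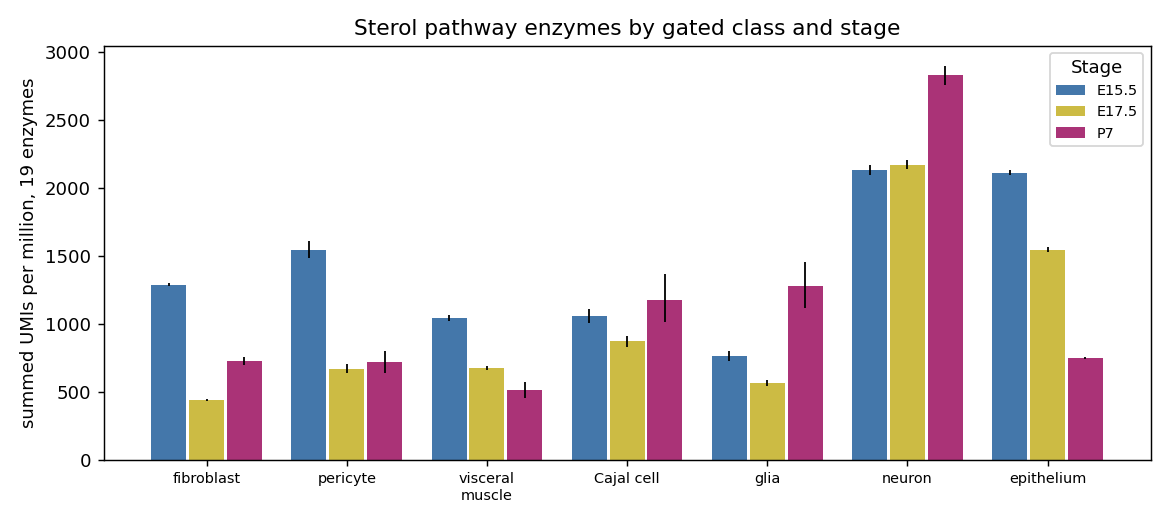
Summed CPM of the 19 enzymes in 7 gated classes at E15.5, E17.5 and P7, with exact 95% Poisson intervals from 1 library per stage. Fibroblasts, pericytes, visceral muscle and epithelium each have their own highest sum at E15.5. Neurons reach 2831 CPM at P7, and epithelium is at 749.7 CPM at P7.

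The distance between fibroblasts and the richer classes was widest at E17.5. The enzyme sum of neurons over that of fibroblasts had a log2 ratio of 0.73 at E15.5, 2.31 at E17.5 and 1.96 at P7. For epithelium over fibroblasts the ratios were 0.71 at E15.5, 1.82 at E17.5 and 0.04 (-0.01 to 0.10) at P7, the last an interval that holds equal levels.

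In neurons, the genes stood almost level between the embryonic stages: 1 of 30, Npc1, was at least 1.5-fold lower at E17.5, where 6.91% of all genes were, and 1, Abca1 with 40 UMIs in all, was at least 1.5-fold higher, where 9.46% were. At P7 against E17.5, 16 genes were at least 1.5-fold higher, where 28.1% of all genes were, and 1, Npc2, was at least 1.5-fold lower, where 13.4% were. Stard4 was at 14.6 CPM at E15.5, 16.1 CPM at E17.5 and 54.8 CPM at P7, a log2 ratio of 1.76 (1.37 to 2.15) at the last step. Hmgcs1 was at 404 CPM at E15.5, 389 CPM at E17.5 and 719 CPM at P7. Nsdhl was at 39.4 CPM at E15.5, 33.3 CPM at E17.5 and 80.5 CPM at P7. Fdps, in contrast, was at 442 CPM at E15.5, 579 CPM at E17.5 and 570.1 CPM at P7.

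The other neuronal log2 ratios at P7 against E17.5 were 1.37 for Hsd17b7, 1.05 for Lss, 0.93 for Srebf2, 0.88 for Sqle, 0.79 for Npc1, 0.77 for Insig2, 0.69 for Idi1 and for Scap, and 0.66 for Mbtps1. Those of Abca1, Srebf1, Sc5d and Insig1 were 1.06, 0.88, 0.64 and 0.61. Of the 7 control genes, 6 were at least 1.5-fold higher in neurons at this step, where 28.1% of all genes were. The median log2 ratio of all genes with at least 100 UMIs was 0.21 in this comparison, and 9 of the 30 genes, among them 2 control genes, Srebf2 and Srebf1, were at least 1.5-fold higher after that shift was taken off.

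In glia at E17.5 against E15.5, 7 of 30 genes were at least 1.5-fold lower, where 6.87% of all genes were, and 2 were at least 1.5-fold higher, where 15.3% were. After cells were thinned to 2500 UMIs, 1 gene was lower in place of 7. Nsdhl was at 24.4 CPM at E15.5, 8.14 CPM at E17.5 and 5.73 CPM (1 UMI) at P7. Acat2, Fdps, Idi1 and Sqle had log2 ratios of -0.98, -0.88, -0.74 and -0.64 at E17.5 against E15.5, and Tm7sf2 and Lss, with few UMIs, -1.74 and -0.78. Abca1 was higher by 0.99 (0.21 to 1.84) and Hsd17b7 by 0.61. For Hsd17b7 this came with an interval from -0.07 to 1.33 that holds equal levels.

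At P7 the glial gate held 64 cells with a median of 2599.5 UMIs, and 21 of 29 genes were at least 1.5-fold higher than at E17.5, where 39.2% of all genes were. Only Mvk, with 3 UMIs at P7, was at least 1.5-fold lower, where 15.9% of all genes were. Hmgcs1 was at 75.9 CPM at E15.5, 60.0 CPM at E17.5 and 172 CPM at P7. Idi1 was at 72.3 CPM at E15.5, 43.2 CPM at E17.5 and 138 CPM at P7. Insig1 was at 29.9 CPM at E15.5, 35.4 CPM at E17.5 and 115 CPM at P7. These 3 genes were thus highest at P7 in glia. Npc1 had the highest log2 ratio, 2.69, from 16 UMIs at P7 and 75 at E17.5. Sc5d, Sqle, Msmo1, Fdps, Cyp51 and Fdft1 had log2 ratios of 1.80, 1.62, 1.40, 1.35, 1.33 and 1.31. Srebf2, Mbtps1 and Ebp followed at 1.00, 0.90 and 0.80, and the median of all genes with at least 100 UMIs was -0.24 in this comparison. Fabp2 stood at 3.89% of its epithelial level in these glia, the highest share among the classes, and its part in the result was not tested. Fibroblast markers in the glial gate summed to 682 CPM at E15.5, 726 CPM at E17.5 and 2339 CPM at P7. In fibroblasts they summed to 43672 CPM at P7. The median glial cell at P7 lay above the fibroblast-marker threshold of the fibroblast gate, and at both embryonic stages below it. The part of fibroblast RNA in the glial result was not tested.

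In visceral muscle at E17.5 against E15.5, 13 of 30 genes were at least 1.5-fold lower, where 24.7% of all genes were, and 1, Abca1, was at least 1.5-fold higher, where 8.12% were. Dhcr7 was at 15.55 CPM at E15.5, 5.54 CPM at E17.5 and 6.75 CPM (4 UMIs) at P7. Msmo1 was at 93.2 CPM at E15.5, 39.2 CPM at E17.5 and 16.9 CPM (10 UMIs) at P7. Hmgcs1 was at 162 CPM at E15.5, 84.1 CPM at E17.5 and 94.5 CPM at P7. Acat2, Nsdhl, Hsd17b7 and Sqle had log2 ratios of -1.37, -1.21, -1.08 and -1.03 at E17.5 against E15.5, and Npc1, Sc5d, Mbtps2, Srebf1, Fdft1 and Stard4 had ratios from -0.76 to -0.59. The median of all genes with at least 100 UMIs was -0.25, and 7 genes were at least 1.5-fold lower after that shift was taken off.

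At P7 against E17.5, 10 of 30 genes were at least 1.5-fold lower in visceral muscle, where 12.7% of all genes were, and 4 were at least 1.5-fold higher, where 30.9% were. After thinning 5 were lower and 2 higher. Insig1 was at 47.4 CPM at E15.5, 38.4 CPM at E17.5 and 15.2 CPM (9 UMIs) at P7. Fdps was at 191 CPM at E15.5, 146 CPM at E17.5 and 59.0 CPM at P7. Srebf2 was at 51.8 CPM at E15.5, 41.5 CPM at E17.5 and 64.1 CPM at P7. These P7 values rest on 100 cells. Of the 30 genes, 12 had a level over 5 times higher in another class than in visceral muscle at P7. Fibroblast markers in visceral muscle summed to 2278 CPM at E15.5, 2355 CPM at E17.5 and 6075 CPM at P7. In the whole muscle gate the median cell lay above the fibroblast-marker threshold of the fibroblast gate at each stage. The part of fibroblast RNA in the muscle result was not tested.

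**Figure D4:**
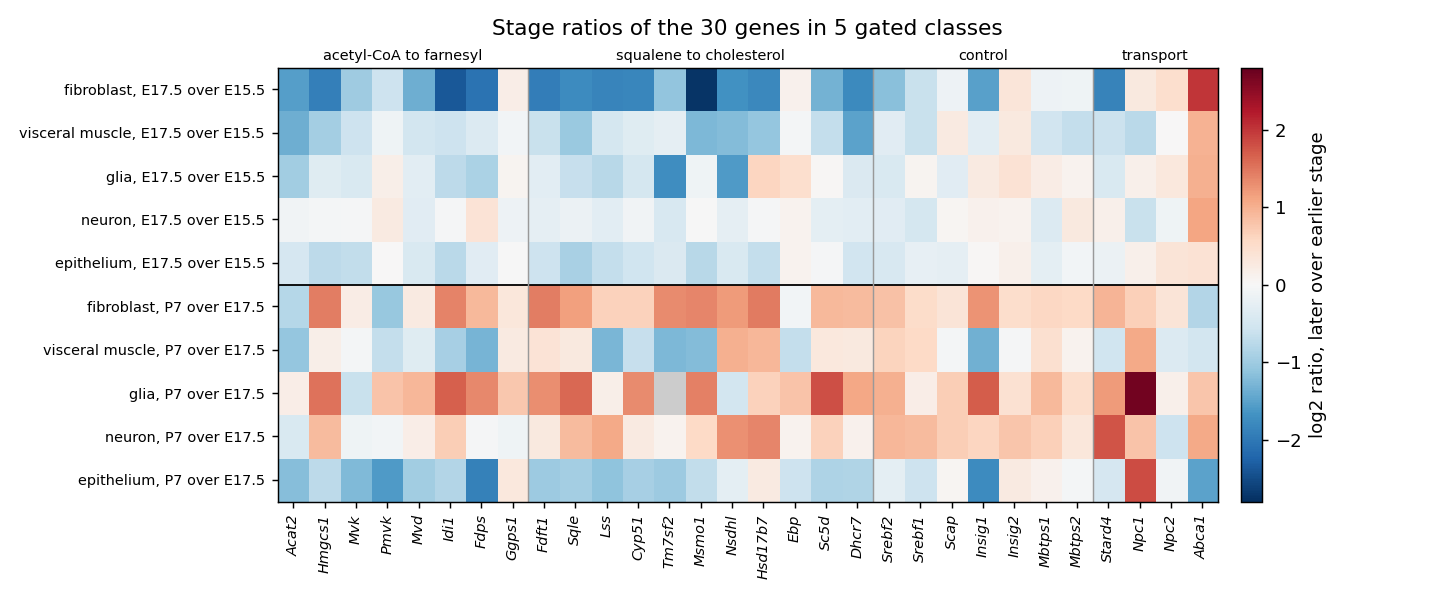
Log2 ratio of the later over the earlier stage for each of the 30 genes (columns, in pathway order) in 5 gated classes, E17.5 over E15.5 in the upper rows and P7 over E17.5 in the lower ones. Red is higher and blue lower at the later stage, and grey marks a gene with no UMI at P7. Fibroblasts at E17.5 are blue at the enzymes other than Ggps1 and Ebp and red at Abca1, and epithelium at P7 is blue at the enzymes other than Ggps1 and Hsd17b7 and red at Npc1.

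In epithelium, as in visceral muscle, the enzyme sum was lower at each later stage, though not every enzyme was. At E17.5 against E15.5, 7 of 30 genes were at least 1.5-fold lower, where 14.8% of all genes were, and 0 were at least 1.5-fold higher, where 14.1% were. These were Sqle at -0.90, Msmo1 at -0.79, Idi1 at -0.76, Hmgcs1 at -0.73, Mvk at -0.69, Lss at -0.67 and Hsd17b7 at -0.66. The median of all genes with at least 100 UMIs was -0.13 in this comparison, and 4 of the 7 were past 1.5-fold after that shift was taken off.

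Between E17.5 and P7, 18 genes were at least 1.5-fold lower in epithelium at the later stage, where 16% of all genes were, and 1 was at least 1.5-fold higher, where 23.2% were. Fdps was at 509 CPM at E15.5, 406 CPM at E17.5 and 109 CPM at P7, a log2 ratio of -1.90 (-1.94 to -1.86) at the last step. Insig1 was at 117 CPM at E15.5, 120.1 CPM at E17.5 and 35.6 CPM at P7. Pmvk was at 115 CPM at E15.5, 115 CPM at E17.5 and 38.5 CPM at P7. Insig1 and Pmvk thus held their level through the embryonic stages, with later log2 ratios of -1.75 and -1.58.

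Mvk, Acat2, Lss, Fdft1, Tm7sf2, Mvd and Sqle had epithelial log2 ratios of -1.24, -1.18, -1.13, -1.03, -1.03, -0.97 and -0.94 at P7 against E17.5. Abca1 was at 1.42 CPM at E15.5, 1.88 CPM at E17.5 and 0.668 CPM at P7, low at each stage. Npc1 was the gene that was higher, at 6.15 CPM at E15.5, 6.76 CPM at E17.5 and 24.0 CPM at P7, a log2 ratio of 1.83 (1.59 to 2.07). Its partner Npc2 was at 299 CPM at E15.5, 383 CPM at E17.5 and 360.3 CPM at P7, so the pair did not move together. Hsd17b7, Ggps1 and Insig2 had log2 ratios of 0.24, 0.29 and 0.25 at P7 against E17.5.

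The lower enzyme level of epithelium at P7 was most marked in the enterocyte type, gated on Fabp2, Apoa1, Mttp and other absorption genes. Its enzyme sum was 2618 CPM at E15.5, 2329 CPM at E17.5 and 572 CPM at P7, from 121, 299 and 2263 cells. The crypt type, gated on Olfm4, Lgr5, Mki67 and others, had 1343 CPM at E15.5, 877 CPM at E17.5 and 683 CPM at P7, from 74, 187 and 1734 cells. Whether this gate holds like cells at each stage was not tested. Goblet cells had 2218 CPM at E15.5, 1314 CPM at E17.5 and 1049 CPM at P7, and enteroendocrine cells 1434, 656 and 735 CPM in the same order. The enterocyte type was thus above the crypt type in the embryo, by 0.96 on the log2 scale at E15.5 and by 1.41 at E17.5, while at P7 the log2 ratio was -0.26 (-0.28 to -0.23).

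Set side by side at 1 stage, 18 of 29 genes were at least 1.5-fold higher in the enterocyte than in the crypt type at E15.5, where 22.7% of all genes were, and 18 of 29 at E17.5, where 25.3% were. At P7 6 of 30 were, where 26.2% of all genes were, and 5 were at least 1.5-fold lower, where 40.1% were.

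In the enterocyte type, 21 of 30 genes were at least 1.5-fold lower at P7 than at E17.5, where 15.9% of all genes were, and in the crypt type 6 of 29 were, where 10.4% were. In goblet cells 16 of 30 were at least 1.5-fold lower at E17.5 against E15.5, where 19.3% of all genes were, so part of the goblet difference lay before birth. Fdps in the enterocyte type was at 633 CPM at E15.5, 670.3 CPM at E17.5 and 80.1 CPM at P7. In the crypt type it was at 270.3 CPM at E15.5, 193 CPM at E17.5 and 85.1 CPM at P7. Idi1 at P7 was at 21.3 CPM in the enterocyte type and 78.3 CPM in the crypt type. At E15.5, 48 of the 74 crypt-type and 37 of the 121 enterocyte-type cells lay within 1.25-fold of the threshold, so these embryonic types are not sharply bounded.

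At P7 a second absorptive type was found, the lysosomal type of the suckling gut, which takes up milk protein by endocytosis. It was gated on Lgmn, Cubn, Amn, Dab2, Ctsb and Lamp2 and held 438 cells at P7 and 0 in either embryonic library. Its enzyme sum was 1349 CPM, against 572 CPM in the enterocyte type at P7, a log2 ratio of 1.24 (1.20 to 1.27). Of the 30 genes, 21 were at least 1.5-fold higher in the lysosomal type, where 20.3% of all genes were, and 0 were at least 1.5-fold lower, where 12.6% were. The median log2 ratio was 1.05, against 0.15 for all genes. Among the epithelial types at P7, the lysosomal type had the highest enzyme sum and the enterocyte type the lowest. Goblet cells had 1049 CPM, Paneth-like cells 791 CPM, and 606 epithelial cells outside all types 1123 CPM. Hmgcs1 was at 146 CPM in the lysosomal type, 167 CPM in goblet cells and 55.1 CPM in the enterocyte type.

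Msmo1 was at 148 CPM in the lysosomal type, against 40.0 CPM in the enterocyte type at P7, a log2 ratio of 1.89 (1.78 to 2.00). Fdps was at 264 CPM in the lysosomal type and 80.1 CPM in the enterocyte type. Sqle was at 43.3 CPM in the lysosomal type and 13.0 CPM in the enterocyte type. The genes of lysosomal export stood with the enzymes here: Npc2 was at 1096 CPM in the lysosomal type, against 391 CPM in the enterocyte type. Npc1 was at 50.8 CPM in the lysosomal type and 28.9 CPM in the enterocyte type, and Stard4 at 171 CPM and 69.4 CPM in the same order. The type was gated on lysosomal and uptake genes, and the part of that gate in the Npc1 and Npc2 levels was not tested. Srebf2 and Insig1 had log2 ratios of 1.19 and 1.39, while Insig2, Mbtps1, Mbtps2, Ebp, Ggps1 and Abca1 lay within 0.30 of 0. Both types come from the same library, so stage and sort do not separate them, and 33 of the 438 cells lay within 1.25-fold of the threshold.

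**Figure D5:**
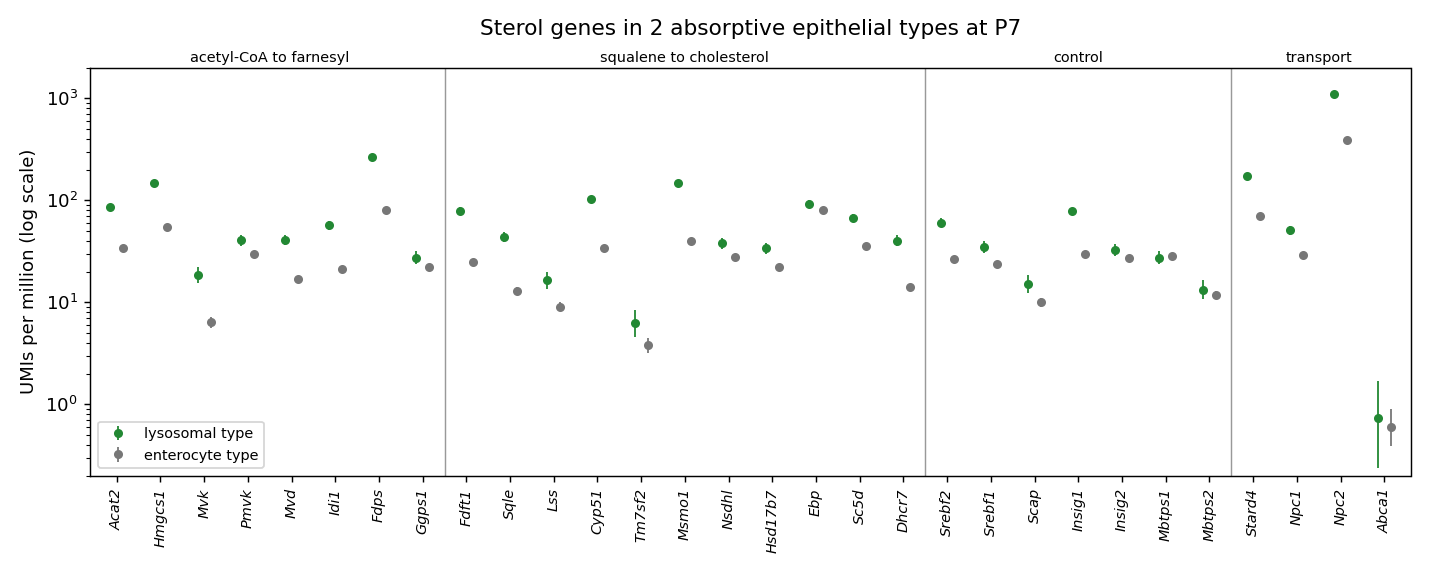
Level of each of the 30 genes at P7 in the lysosomal type (438 cells) and the enterocyte type (2263 cells) of the epithelium, in CPM on a log axis, with exact 95% Poisson intervals. The lysosomal type lies above the enterocyte type for most enzymes, as for Msmo1 with 148 CPM against 40.0 CPM, and level with it for Mbtps1.

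Neighbouring pathways were taken as 5 further lists, whose levels in fibroblasts are given first. Of 14 SREBP-linked fatty acid genes, 9 were at least 1.5-fold lower and 1 higher at the embryonic step, with a median log2 ratio of -0.61, where 11.8% of all genes were lower and 15.1% higher, the shares that also apply to the other lists at this step. The lowest were the elongase Elovl6, at 36.5 CPM at E17.5 against 85.2 CPM at E15.5, and the desaturase Scd1, at 5.58 CPM against 12.0 CPM. The highest were Lpin1 and Me1, with log2 ratios of 0.63 and 0.46. Of 12 other genes tied to SREBP or its cofactors, 3 were lower and 1 higher, the extremes being Tmem97 at -1.40, Fabp5 at -1.17, Stard5 at 0.47 and Pnpla2 at 0.81.

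Of the uptake, ester and export genes, 17 had enough UMIs in fibroblasts at E17.5 against E15.5, and 1 was at least 1.5-fold lower and 4 higher, where 11.8% and 15.1% of all genes were, so the list is not set apart by these counts. Cyp27a1, which makes an oxysterol from cholesterol, was at 5.22 CPM at E17.5 against 1.32 CPM at E15.5. Mylip, a known LXR target, was at 35.4 CPM at E17.5 against 17.97 CPM at E15.5. The lowest of that list were Scarb1 at -0.78 and Osbp at -0.38. In the isoprenoid branch, which uses farnesyl diphosphate for ubiquinone and protein anchors, 1 of 14 was lower, with Pdss1 at -0.92 and Coq2 at -0.50 lowest and Fnta at -0.03 and Rabggta at 0.03 highest. Of 12 genes of regulated degradation in the sterol pathway, 0 were past 1.5-fold in either direction, with Vcp at -0.47 and Ufd1 at -0.24 lowest and Pgrmc1 at 0.15 and Trim24 at 0.13 highest.

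At P7 against E17.5 in fibroblasts, the fatty acid list had 1 lower and 4 higher of 14, where 11.6% of all genes were lower and 23.2% higher, with Acly at 1.04 and Fads2 at 0.78 highest and Scd1 at -2.38 and Scd2 at -0.58 lowest. The uptake and export list had 2 lower and 6 higher of 16. Ch25h, the cholesterol hydroxylase, was at 2.41 CPM at P7 against 17.7 CPM at E17.5, and Mylip at 12.9 CPM at P7 against 35.4 CPM at E17.5. Apoa1, a lipoprotein of enterocytes, had the highest ratio of that list, at 4.08, beside the higher share of Fabp2 given above, and Scarb1 followed at 1.10. The other genes tied to SREBP had 2 lower and 2 higher of 12, the isoprenoid branch 1 lower and 3 higher of 14, and regulated degradation 0 lower and 2 higher of 12.

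In epithelium at P7 against E17.5, where 16% of all genes were lower and 23.2% higher, the fatty acid list had 4 lower and 2 higher of 14. Scd2, a desaturase, was at 64.2 CPM at P7 against 689.8 CPM at E17.5, and Fads1 at 21.9 CPM at P7 against 55.8 CPM at E17.5. Uptake and export genes had 2 lower and 9 higher of 20. Abcg8 and Abcg5, the paired pump that returns sterol to the lumen, were at 36.5 CPM and 31.6 CPM at P7 against 2.60 CPM and 4.03 CPM at E17.5. Scarb1 at -1.46 and Soat1 at -0.51 were the lowest of that list. Of the other genes tied to SREBP, 4 of 12 were lower, Aacs at -1.53 the most.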

How the data were processed

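Single-cell 3′ libraries (Chromium v2 chemistry, per the labels' protocols) of whole small intestine were analysed, 1 per stage. The submitters' processing notes name Cell Ranger 7.2.0 and the builds mm10 and GRCm38. The authors deposited raw UMI counts per gene and cell, already limited to cells with 501 to 6989 genes and under 15% mitochondrial counts, as the values show. The deposited barcode lists were the same for all 3 libraries, so barcodes shared between libraries could not be counted. Columns of samples outside this series numbered 0.

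Doublets were called with Scrublet in scanpy 1.11.5 (expected rate 6%) and removed. Cells were put in classes by summed marker UMIs per 10000, with thresholds set after the marker distributions had been seen. Members and lists were chosen with earlier results of these data known. UMIs were summed per class and stage and divided by the class total (CPM). Levels have exact Poisson intervals and ratios exact conditional binomial intervals (95%, scipy 1.17.1), and they cover counting error only. A gene counts as higher or lower at 1.5-fold with at least 20 UMIs in both libraries together, and the background percentages apply this rule to all genes. With 1 library per stage no test between stages was possible and no p-value is given. The ratio step was tested on simulated counts. Members past 1.5-fold with at least 100 UMIs, up to 12 per step, and the 2 highest and 2 lowest genes of each further list were to be named, and members with fewer UMIs that are named were added after their values were seen. The alternatives were scaling by the median gene, classes from Leiden clusters (leidenalg 0.10.2, resolution 1, 2000 genes, 30 components, 15 neighbours), stricter gates, no doublet removal, means over cells, thinning to 2500 UMIs per cell and other UMI minimums. Promoters are from RefSeq GRCm38.p6, and gene overlaps from an annotation of GRCm38. Some genes of the pathway are not reported here.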

Additional observations from a re-analysis of the deposited data

Results flagged for a closer look

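At P7 against E17.5, 11 of the 30 genes, each with at least 100 UMIs, were at least 1.5-fold higher in fibroblasts and at least 1.5-fold lower in epithelium of the same libraries. With Tm7sf2, which had fewer UMIs, 12 of 30 did so, and 2.65% of 12693 genes with at least 20 UMIs did. The fibroblast level at E17.5 also entered the choice of the genes, so nothing is read from these counts. The log2 ratio in fibroblasts minus that in epithelium was 3.01 for Insig1, 2.80 for Fdps, 2.47 for Fdft1, 2.22 for Idi1, 2.16 for Hmgcs1, 2.10 for Sqle and 2.05 for Msmo1. It was 1.77 for Lss, 1.76 for Sc5d, 1.73 for Dhcr7 and 1.58 for Cyp51. Insig1 had log2 ratios of 1.25 in fibroblasts and -1.75 in epithelium. With 1 library per stage the difference between the classes was not tested.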

How the results depend on the processing

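The counts of genes past 1.5-fold in fibroblasts at each step, and in epithelium at P7 against E17.5, stayed within 1.5 times of the reported counts under each alternative run. Scaling by the median gene gave 7 in place of 13 lower genes in visceral muscle at E17.5 against E15.5, 4 in place of 7 in epithelium at that step, 0 lower in neurons at that step, 0 lower in glia at P7 against E17.5, and 2 lower and 9 higher in neurons at P7 against E17.5. Thinning gave 5 lower and 2 higher genes in visceral muscle at P7 against E17.5, 1 lower in glia at E17.5 and 0 lower at P7, 2 lower and 2 higher in neurons at E17.5, 3 lower in neurons at P7, and 1 higher in epithelium at E17.5. Thinning also turned the direction of 6 ratios: in visceral muscle those of Srebf1 at E17.5 against E15.5 (0.12), Acat2 (0.16) and Ebp (0.28) at P7 against E17.5, and Mvd (0.032) and Ebp (0.29) at P7 against E15.5, and in glia that of Mvk at P7 against E17.5 (0.30). A minimum of 100 UMIs left 0 higher genes in visceral muscle and in neurons and 1 in glia at E17.5, and 1 higher in visceral muscle at P7. Leiden clusters gave 1 higher gene in glia at E17.5 and 0 lower at P7, and keeping doublets gave 1 higher in glia and 0 lower in neurons at E17.5. The stricter gate left 0 higher genes in neurons at E17.5 and 0 lower at P7. The cause was not tested.

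The enzyme sum of neurons over fibroblasts (log2) was 0.65 at E15.5 and 2.07 at E17.5 with Leiden clusters, and 0.57, 2.13 and 1.84 at E15.5, E17.5 and P7 as a mean over cells. That of epithelium over fibroblasts was 0.75 at E15.5 as a mean over cells, and 1.71 with Leiden clusters and 1.79 with doublets kept at E17.5. The promoter letters were in 1 gene as searched, 0 with the narrower form and 20 with CCAAT, added after seeing the data.

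No paired analysis was possible because each stage has 1 library, and for the same reason no replicate could be left out. Spread between animals is unknown. Values at P7 in glia, visceral muscle and outer or subepithelial fibroblasts rest on 18 to 100 cells, and genes with few UMIs there are limited by depth.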
